A study of Mus musculus with 2 samples.

Results

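The genes described here are Cbs and 8 further genes of the methionine cycle, namely Cth, Mtr, Mtrr, Bhmt, Ahcy, Ahcyl1, Mat2a and Mat2b. They were found by symbol in the platform's probe annotation, which paired 10 of the 22626 probe sets used, and 7 of 12393 genes, with these symbols. Mtr and Mat2a were paired with no probe set there and are not analysed here. RNA came from implantation sites (pieces of pregnant uterus, each with a conceptus within maternal decidua), dissected on day 8 of pregnancy from females 4 months old on a C57Bl/6J X OLA129 background, and was hybridised to Affymetrix mouse arrays. The Cbs null group, homozygous for the deficiency, had 1 array and the control group had 1 array. The labels used here give neither the Cbs allele, nor the genotype of the control females and the conceptuses, nor whether sites were pooled. Because each genotype had 1 array, differences have no replicate check, no error could be attached to a value and no test between genotypes was possible. In whole sites, fewer cells of a type and less RNA per cell cannot be told apart.

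Methionine is activated to S-adenosylmethionine by methionine adenosyltransferase, of which Mat2a encodes the catalytic and Mat2b the regulatory subunit outside adult liver. Methyl transfer leaves S-adenosylhomocysteine, which S-adenosylhomocysteine hydrolase, encoded by Ahcy, splits to homocysteine. Homocysteine is then remethylated by methionine synthase (Mtr, kept active by Mtrr) or by betaine-homocysteine methyltransferase (Bhmt, known chiefly from liver and kidney), or it leaves the cycle by transsulfuration through cystathionine beta-synthase (Cbs) and cystathionine gamma-lyase (Cth).

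Signals are intensities on a linear scale. Lower values were raised to 14.3, the pooled 25th percentile, and probe sets whose mean signal reached the median of 70.5 were kept for comparison. As a guide to the signal of silent genes, a low reference was built from 122 probe sets of 99 genes not expected in uterus, 70 of the probe sets being for olfactory, vomeronasal and taste receptors. Its 95th percentile was 21.7 on the Cbs null array and 22.8 on the control array, and 69.1% and 68.4% of all probe sets exceeded it there. Percentiles of signal below rank probe sets among all 22626. Probes differ in how well they bind, so they do not rank transcripts between genes.

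The upstream sequence of 4 members is shown: Cbs as the targeted gene, Mtrr as the kept member with the largest log2 ratio, and Bhmt and Ahcy as a dim and a bright member. Each run is the 250 bases before the annotated start, 5′ to 3′ on the minus strand of GRCm38.p6 from RefSeq, with CG dinucleotides in capitals. They lie at chr17:31637206-31637455 (Cbs), chr13:68582170-68582419 (Mtrr, the outermost of its annotated starts), chr13:93637759-93638008 (Bhmt) and chr2:155074498-155074747 (Ahcy).
Cbs: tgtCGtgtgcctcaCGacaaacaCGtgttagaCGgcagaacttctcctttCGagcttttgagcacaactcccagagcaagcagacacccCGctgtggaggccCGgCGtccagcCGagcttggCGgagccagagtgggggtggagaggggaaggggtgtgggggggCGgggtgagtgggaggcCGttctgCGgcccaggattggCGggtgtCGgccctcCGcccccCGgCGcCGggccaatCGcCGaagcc
Mtrr: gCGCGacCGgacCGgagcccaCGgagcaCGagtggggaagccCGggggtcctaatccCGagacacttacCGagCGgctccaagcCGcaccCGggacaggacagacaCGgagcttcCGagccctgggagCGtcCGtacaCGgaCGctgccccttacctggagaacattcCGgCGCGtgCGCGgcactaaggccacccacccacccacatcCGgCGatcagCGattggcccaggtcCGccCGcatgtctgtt
Bhmt: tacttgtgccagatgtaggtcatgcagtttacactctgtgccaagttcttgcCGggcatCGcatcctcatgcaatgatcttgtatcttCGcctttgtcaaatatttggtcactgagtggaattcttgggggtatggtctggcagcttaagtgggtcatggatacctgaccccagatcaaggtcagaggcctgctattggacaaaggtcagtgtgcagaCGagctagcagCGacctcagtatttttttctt
Ahcy: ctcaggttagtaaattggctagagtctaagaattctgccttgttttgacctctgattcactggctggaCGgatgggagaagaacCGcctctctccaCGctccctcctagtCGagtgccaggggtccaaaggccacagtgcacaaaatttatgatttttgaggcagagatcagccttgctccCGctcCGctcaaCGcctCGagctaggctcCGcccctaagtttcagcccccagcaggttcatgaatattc

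These windows differed in CG content. Cbs had 21 CG dinucleotides and Mtrr 28, at percentiles 83.7 and 92.4 of the 32851 promoters in the same table, whose median was 6. Ahcy had 9, at percentile 59.7, and Bhmt had 5, at percentile 44.4. Searched on both strands, the GC box GGGCGG occurred 2 times in Cbs, once each in Mtrr and Ahcy and not in Bhmt, and 32.7% of all promoters held it. CCAAT occurred 2 times in Cbs and once in each of the other windows, with 33.8% of all promoters holding it. The E-box CACGTG occurred once in Cbs and in none of the others, with 6.02% of promoters holding it, and TATAAA (12.4% of promoters) was in none of the 4. No motif match overlapped another. Matches are descriptions of letters and were not tested as sites. RefSeq promoters matched 8 of the 9 genes, all but Cth.

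Cbs gave low signal on both arrays and somewhat less on the Cbs null array. Probe set 1423844_s_at read 23.8 on the Cbs null array and 30.3 on the control array, at percentiles 32.1 and 35.9 of signal. Probe set 1425623_a_at read 22.3 on the Cbs null array and 29.9 on the control array, at percentiles 31.3 and 35.7. The Cbs null value was thus the lower one in each probe set, with log2 ratios of Cbs null over control of -0.35 and -0.42. Neither reached the filter. Of probe sets under the filter with both values above the floor, 7.33% were lower in Cbs null by 1.5-fold or more and 9.46% were higher by as much, and 95% of their log2 ratios lay between -0.87 and 0.95. The Cbs ratios were at percentiles 17.9 and 13.7 of that spread, inside it. The probe sets may share target sequence and came from the same RNA, so their likeness is no replicate of the genotype.

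The Cbs signal was just above the low reference. On the Cbs null array 4 and 6 of the 122 low reference probe sets were brighter than 1423844_s_at and 1425623_a_at, and on the control array 3 were brighter than each. Without the receptor genes the 95th percentile of the reference was 30.7 on the Cbs null array and 32.6 on the control array, and Cbs then lay below it on both. That smaller reference still held the bright Mbp probe sets. The sources used here do not say which part of Cbs is missing in the null females or where these probe sets lie, so the values do not check the genotype.

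**Figure D1:**
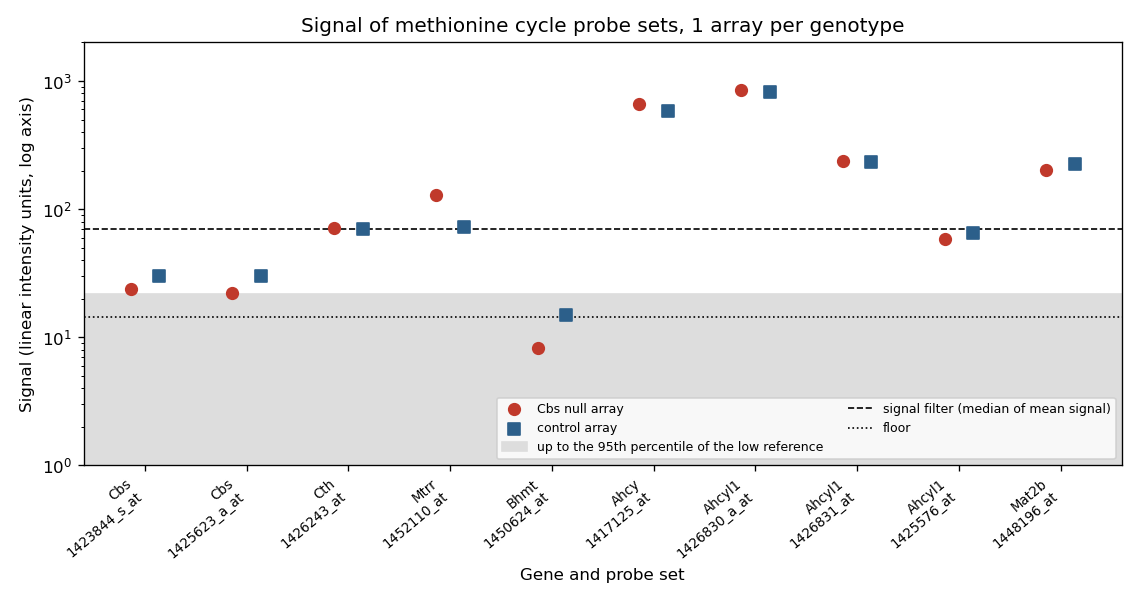
Signal of the 10 probe sets (log axis, linear intensity units) on the Cbs null array (circles, left) and the control array (squares, right), 1 array each. The grey band ends at the 95th percentile of the low reference, the dashed line is the filter of 70.5 and the dotted line the floor of 14.3. Among probe sets above the filter the Mtrr pair, at 129 and 72.5, lies furthest apart.

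Cth, the second enzyme of transsulfuration, which cleaves cystathionine to cysteine, gave near-equal signal on both arrays. Its single probe set 1426243_at read 71.5 on the Cbs null array and 70.6 on the control array, at percentile 50.1 of mean signal, with a log2 ratio of 0.02. It was the kept member nearest the filter, with a mean of 71.05, while the third Ahcyl1 probe set, at 61.55, was the nearest below it. On the Cbs null array 2 low reference probe sets, those of Mbp, were brighter than Cth, and on the control array none was.

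Mtrr, the reductase that restores the cobalamin of methionine synthase to its active state, was the kept member with the largest log2 ratio. Probe set 1452110_at read 129 on the Cbs null array and 72.5 on the control array, at percentiles 62.7 and 51.0. The log2 ratio was 0.83, or 1.78-fold higher in Cbs null, at percentile 99.0 of the ratios of all 11315 kept probe sets. Both values exceeded the filter and every low reference probe set of their array. It was the 1 member probe set of 6 kept that was at least 1.5-fold higher, against 2.60% of all kept probe sets and 4.08% in the dimmest tertile of signal, where it lies and where 2.47% were lower by as much. No other Mtrr probe set was annotated, so the ratio rests on a single probe set and a single pair of arrays. Over 6 other settings of scaling and floor the ratio lay between 0.72 and 0.83. The lower and the higher floor could not change it, because its values on both arrays lay above them.

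Several cell type lists, chosen with earlier results of these data known, also differed between the arrays. Of all kept genes, 2.46% were higher in Cbs null by 1.5-fold or more and 1.33% were lower by as much. Of 13 kept uterine epithelium genes, 8 were at least 1.5-fold higher in Cbs null, and the summed signal of the 16 annotated was 24150.3 on the Cbs null array and 7035.4 on the control array. Prss29 (7620.0 against 2220.1), Prss28 (6692.4 against 918.9) and Spink1 (4853.2 against 556.3) were the brightest of them and carried much of both sums. The median log2 ratio of the 13 kept epithelium genes was 0.77, with 12 ratios above 0 and 1 below. Of 13 kept uterine natural killer cell genes, 10 were at least 1.5-fold lower, with sums over 15 genes of 8939.4 on the Cbs null array and 19249.2 on the control array. Granzymes were the brightest of them and carried most of both sums, Gzmd alone giving 1857 and 4720.7. Of the 13 ratios, 12 were below 0 and 1 above, that of Klrk1 (76.5 on the Cbs null array, 73.9 on the control array). Under the filter, Ncr1 (67.5 and 56.4) and the dim Tbx21 (16.2 and 15.5) were not lower in Cbs null either. Sums were 1203.5 on the Cbs null array and 606.0 on the control array for 10 trophoblast genes, 5590.9 and 3046.9 for 8 embryonic red cell genes, 1823.5 and 1303.9 for 12 yolk sac endoderm genes, and 13199.0 and 9779.9 for 15 macrophage genes, Cbs null first in each. Of the red cell sums, Hbb-y alone gave 4490.3 and 2494.9. Genes at least 1.5-fold higher were 4 of 5 kept for trophoblast, 3 of 4 for red cells, 2 of 4 for yolk sac endoderm and 3 of 13 for macrophages. In these lists 0 were lower by as much, though 1 kept trophoblast gene and 1 kept macrophage gene had ratios below 0. The trophoblast gene was Eomes, with a log2 ratio of -0.58, which is also in the natural killer cell list. The filter is on mean signal, so some genes counted in this paragraph were kept through a single array. On the control array Afp (24.7) and Ttr (33), the yolk sac endoderm genes counted as higher, lay under the filter of 70.5. So did Ceacam11 (29.8), Prl4a1 (61.2) and Prl2b1 (64.4) of trophoblast and Calb1 (47.3) of epithelium, while Tpbpa of trophoblast (228.1) did not. Of the natural killer cell genes counted as lower, Il2rb (61.1) lay under it on the Cbs null array. Decidual stroma (20545.9 on the Cbs null array, 21904.9 on the control array), endothelium (3678.9 and 4080.4) and smooth muscle (36419.4 and 36295.1) had sums that lay closer together. Of 13 kept decidual stroma genes, 2 were at least 1.5-fold lower in Cbs null, named here after their values were seen: Bmp2, a growth factor of decidualization, at 258 on the Cbs null array and 597 on the control array, and Tdo2, which degrades tryptophan, at 1750.3 and 3129.5 in the same order. Of the 10 endothelium and 8 smooth muscle genes, 0 were 1.5-fold apart. Markers under the floor on both arrays numbered 3 of 12 for yolk sac endoderm, 2 of 10 for trophoblast, 2 of 8 for embryonic red cells and 0 for the other cell lists given in this paragraph. No marker read exactly 0. The part of these lists in the Mtrr ratio was not tested.

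**Figure D2:**
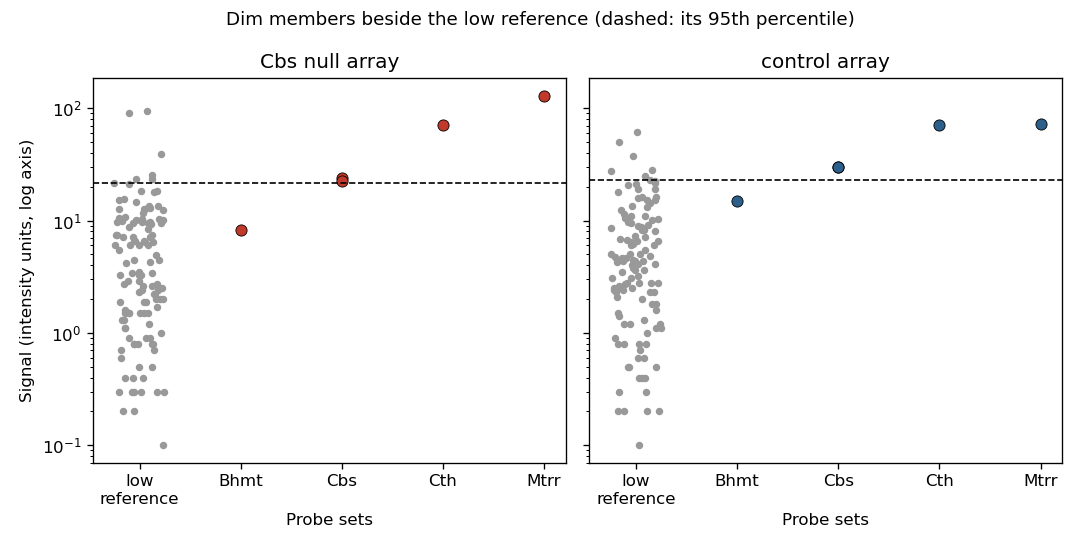
Signal (log axis, intensity units) of the 122 low reference probe sets (grey, spread sideways for legibility) beside Bhmt, Cbs, Cth and Mtrr on the Cbs null array (left) and the control array (right). Bhmt lies within the reference, the Cbs pair close to its 95th percentile (dashed, 21.7 and 22.8), and Cth and Mtrr above that line.

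Bhmt, which moves a methyl group from betaine to homocysteine, was not above the low reference. Probe set 1450624_at read 8.2 on the Cbs null array, under the floor, and 14.9 on the control array, at percentile 22.3 of mean signal. Of the low reference, 38 probe sets were brighter on the Cbs null array and 19 on the control array. No ratio is given, because the Cbs null value lay under the floor and the size of a ratio would depend on the floor. The related Bhmt2, which uses S-methylmethionine as its methyl donor, read 6.8 and 0.9 on the Cbs null array and 4.5 and 6.3 on the control array in its 2 probe sets. None of 12 annotated liver and kidney markers passed the filter, and their summed signal was 115.9 on the Cbs null array and 130 on the control array.

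Ahcy, which forms homocysteine, gave strong and similar signal on the 2 arrays. Probe set 1417125_at read 662 on the Cbs null array and 580.0 on the control array, at percentiles 90.7 and 89.3, with a log2 ratio of 0.19. That lay within the range of -0.46 to 0.47 that held 95% of ratios in the brightest tertile.

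Ahcyl1 encodes a relative of the hydrolase, also called IRBIT, that binds the inositol trisphosphate receptor and is not known to hydrolyse S-adenosylhomocysteine. Its 3 probe sets spanned a 13.5-fold range of mean signal within the same gene, and the differences between genotypes were small in all of them. Probe set 1426830_a_at read 848.3 on the Cbs null array and 819 on the control array, with a log2 ratio of 0.05. Probe set 1426831_at read 235.6 on the Cbs null array and 231.8 on the control array, with 0.02. Probe set 1425576_at, under the filter, read 58.4 on the Cbs null array and 64.7 on the control array, with -0.15. The ratios differed among the 3 by 0.20, against an SD of 0.30 for the difference between the brightest 2 kept probe sets of 2284 genes.

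Mat2b, the regulatory subunit of the adenosyltransferase, was measured at 200.4 on the Cbs null array and 226.3 on the control array in probe set 1448196_at, at percentiles 72.4 and 75.3. Its log2 ratio was -0.18, the only one below 0 among the 6 kept member probe sets, and lay within the range of -0.47 to 0.57 that held 95% of ratios in the middle tertile. Mat1a, the adenosyltransferase of adult liver, read 0.8 on the Cbs null array and 1.3 on the control array, under the floor on both.

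**Figure D3:**
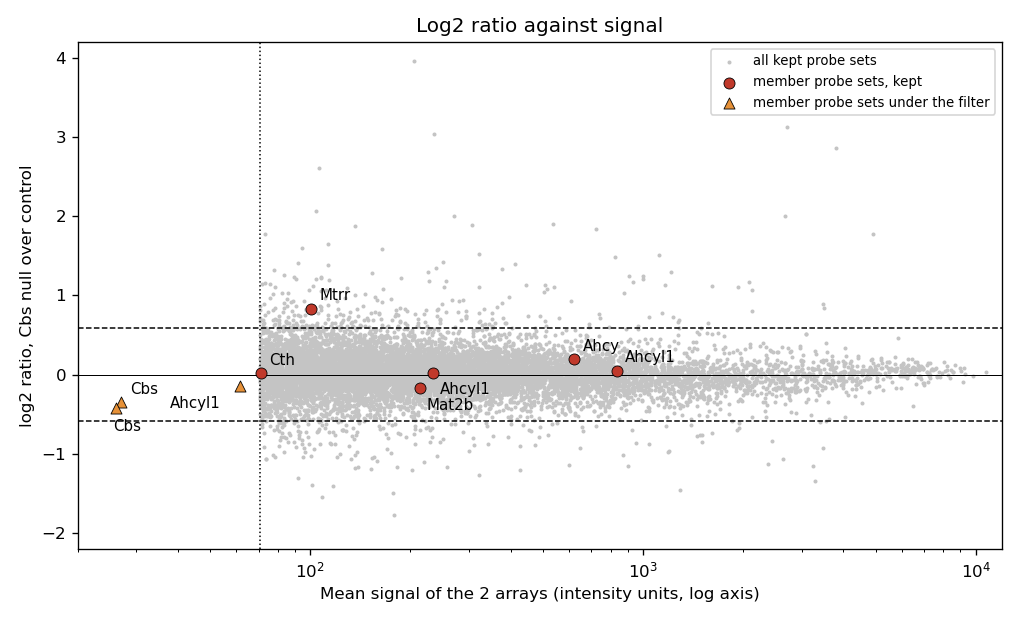
Log2 ratio of Cbs null over control against mean signal of the 2 arrays (log axis) for the kept probe sets (grey), the 6 kept member probe sets (circles) and the 3 member probe sets of Cbs and Ahcyl1 under the filter (triangles). Dashed lines mark 1.5-fold and the dotted line the filter of 70.5. Mtrr is the member probe set outside the dashed lines, at 0.83.

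Of the 6 kept member probe sets, which belong to 5 genes, 1 was higher in Cbs null by 1.5-fold or more and 0 were lower by as much, against 2.60% and 1.65% of all kept probe sets. Their median log2 ratio was 0.04, beside 0.01 for all kept probe sets. Apart from Mtrr they lay between -0.18 and 0.19. The 4 probe sets not kept were the pair of Cbs, the dimmest of Ahcyl1 and that of Bhmt.

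Set against the low reference, the routes of homocysteine were represented as follows. Its formation by Ahcy and the Mtrr component of the methionine synthase route gave signal above the reference on both arrays. So did Cth and, less clearly, Cbs in transsulfuration. The betaine route did not, in the single probe set of Bhmt. Nor did Bhmt2, which uses S-methylmethionine in place of betaine. In all, 6 of the 7 measured members, and 9 of their 10 probe sets, exceeded the reference on both arrays, with Bhmt as the exception. Without the receptor genes in the reference 5 members did so, and the share of all probe sets above that smaller reference is not given here. Of all probe sets, with each array taken separately, 69.1% exceeded the full reference on the Cbs null array and 68.4% on the control array. Exceeding the full reference was therefore common and does not by itself set these members apart from other genes. Mtr itself was not analysed, so the methionine synthase route is described from its reductase alone, and transcript signal does not measure enzyme activity.

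Few of the genes that serve these routes were 1.5-fold apart, which was also so of all kept genes. Among all kept genes, each represented by its brightest probe set, the median log2 ratio was 0.02, and 2.46% and 1.33% were higher and lower by 1.5-fold or more, as given above. Of 11 kept companions of the cycle, 0 were 1.5-fold apart in either direction and the median was -0.02. They included Adk, which removes the adenosine released with homocysteine, at 1129.2 on the Cbs null array and 1190.4 on the control array. Srm, spermidine synthase, which draws on decarboxylated S-adenosylmethionine, had 701.6 on the Cbs null array and 710.1 on the control array. Ahcyl2, the second hydrolase relative, had 295.5 on the Cbs null array and 264.9 on the control array in its brightest probe set. Under the filter, another Ahcyl2 probe set read 74.6 and 49 in the same order, a log2 ratio of 0.61. The dimmest read 36.2 on the Cbs null array and 36.5 on the control array. Gnmt, the glycine methyltransferase of liver, was under the floor on both arrays at 3.6 and 3.4.

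Cobalamin handling, which supplies the cofactor that Mtrr reactivates, had 5 kept genes of 11 annotated, and 0 of these were 1.5-fold apart. Mmadhc, which directs cobalamin within the cell, read 583.9 on the Cbs null array and 560.1 on the control array. Tcn2, the plasma carrier transcobalamin, read 374.9 on the Cbs null array and 254.2 on the control array, a log2 ratio of 0.56, just under the 1.5-fold limit. The median of the 5 was 0.06.

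The betaine and choline list had 6 kept genes of 10 annotated, again with 0 at 1.5-fold and a median of -0.08. Its brightest genes were the choline transporter Slc44a1, at 1112.6 on the Cbs null array and 1304.6 on the control array, and its relative Slc44a2, at 640.8 and 696.1 in the same order. Methionine salvage, which rebuilds methionine from the methylthioadenosine left by polyamine synthesis, had 7 kept genes of 8, none of them 1.5-fold apart, with a median of 0.01. Mtap, its first enzyme, read 309.8 on the Cbs null array and 374.0 on the control array, and Got2, an aminotransferase, read 1082.8 on the Cbs null array and 1071.7 on the control array.

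Downstream of Cth, 1 of 10 kept genes was at least 1.5-fold higher and 0 were lower, with a median of 0.01. The higher one was Cdo1, which oxidises cysteine on the way to taurine, at 249.3 on the Cbs null array and 142.4 on the control array, 1.75-fold higher in a single probe set. Sqor, which oxidises hydrogen sulfide, read 942.4 on the Cbs null array and 1202.7 on the control array, and Gclm, the modifier subunit of glutamate-cysteine ligase, read 260.0 on the Cbs null array and 241.6 on the control array. Among methyltransferases that spend S-adenosylmethionine, 1 of 13 kept genes was higher, 0 were lower and the median was 0.17. That 1 was Inmt, an amine methyltransferase, at 420.9 on the Cbs null array and 51.0 on the control array, a log2 ratio of 3.04 in a single probe set. The control value of Inmt lay under the filter of 70.5. Because the filter is on mean signal, Inmt was kept and counted through the Cbs null array alone. The arginine methyltransferases Prmt1 and Carm1 had log2 ratios of 0.18 and 0.22.

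**Figure D4:**
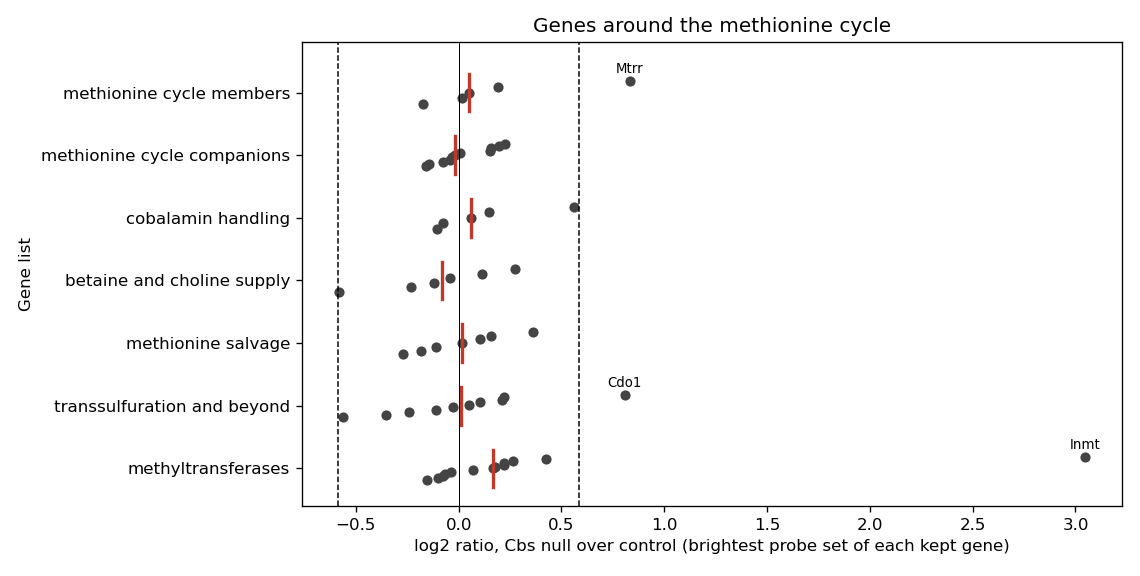
Log2 ratio of Cbs null over control for each kept gene (points, brightest probe set) of the methionine cycle and of 6 lists around it, with list medians as red bars. Dashed lines mark 1.5-fold. Mtrr, Cdo1 and Inmt are the genes outside them, and list medians lie between -0.08 and 0.17.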

How the data were processed

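The authors deposited linear intensity values, which the submitters' processing notes credit to GCOS 1.4. Its algorithm, scaling target and detection calls, and the probe sets' genome build, were not given in the sources used here. A 2% trimmed mean was 200.08 on each array, so no further scaling was done. After 64 control probe sets were set aside, 22626 remained, of which 20380 had a single gene symbol in the platform annotation, 20351 of them matched by identifier to RefSeq (GRCm38.p6). A floor at the 25th percentile and a filter at the median of mean signal left 11315 probe sets, and 7079 genes among those with a single symbol. Results are log2 ratios of Cbs null over control, called past 1.5-fold, with no p-value. The number of arrays limits the precision. Scripts were tested on simulated data. The members and the lists were chosen with earlier results of these data known. Named were all members, and of each pathway list the kept genes past 1.5-fold and the brightest 2, with Mat1a, Gnmt, Bhmt2, Ahcyl2 and Adk for their role, and up to 3 brightest genes of a marker list. Mbp, Bmp2, Tdo2 and those under "Other observations" were chosen after their values were seen. So were the marker genes named for values under the filter or against the direction of their list. Alternatives were quantile, median and loess scaling (span 0.3), a pseudocount, a lower and a higher floor (10th and 40th percentiles), filters at the 25th and 75th percentiles or none, leaving out probe sets ending in _s_at, _x_at or _a_at, the median over probe sets, and other low references. Computation used Python 3.11.15, pandas 2.3.3 and statsmodels 0.14.6.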

Additional observations from a re-analysis of the deposited data

How the results depend on the processing

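Of 173 recomputed values, 160 stayed within the limits used here, namely 1.5 times for counts and 0.30, the SD between probe sets of a gene, for log2 ratios. Some could not move, since a changed floor leaves the ratio of values above it as it was. Median centring shifts all ratios by the same amount. The total is therefore no measure of how stable the results are. A change of sign was looked for only in log2 ratios past 1.5-fold, which among these values was Mtrr alone, and it kept its sign. Values near 0 did change sign, such as Cth, at 0.02 in the main setting and -0.04 with quantile normalization. The count of members at least 1.5-fold higher was 0 with a filter at the 75th percentile, since Mtrr is dimmer than that filter, and 1 under the other settings. With a filter at the 25th percentile, 1 of 14 companions of the cycle, 1 of 11 cobalamin genes and 2 of 16 methyltransferases were higher, because dimmer genes entered, and the share of all genes was 5.12%. With no filter these were 1 of 17, 1 of 11 and 2 of 17, and 4.08% of all genes. With quantile normalization 1 betaine and choline gene and 1 gene downstream of Cth were at least 1.5-fold lower, against 0. Raising the floor to the 40th percentile made both Cbs ratios 0, since both values then lay at the floor. The size of the Bhmt ratio depended on the floor, so none is given. Low signal over background limits what can be said of Cbs and Bhmt. No paired analysis was possible because each group has 1 array.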

Other observations

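The genes in this paragraph were chosen after their values were seen. Bhmt, Bhmt2 and Dmgdh, which demethylates the dimethylglycine that Bhmt makes, follow one another on chromosome 13 in the RefSeq gene order, and the single probe set of Dmgdh read 2.1 on the Cbs null array and 2.0 on the control array. By contrast, Chdh, which makes betaine from choline, read 268.3 on the Cbs null array and 221.9 on the control array. Slc6a12, a betaine transporter, read 73.1 on the Cbs null array and 109.4 on the control array, a log2 ratio of -0.58 just inside the 1.5-fold limit. Suox, sulfite oxidase, had 166.1 on the Cbs null array and 245.1 on the control array, a log2 ratio of -0.56.

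Under the signal filter, Hnmt, which methylates histamine, read 86.1 on the Cbs null array and 49.3 on the control array. Slc46a1, the proton-coupled folate transporter, read 52.6 on the Cbs null array and 29.5 on the control array in its brighter probe set, a log2 ratio of 0.83, against 0.24 in the dimmer one. Cubn, a receptor for cobalamin bound to intrinsic factor that yolk sac endoderm also carries, read 22.6 on the Cbs null array, close to the 95th percentile of the low reference there, and 5.9, under the floor, on the control array in its brighter probe set. The other probe set was under the floor on both arrays, at 8.7 on the Cbs null array and 4.4 on the control array. Yolk sac endoderm markers summed to 1823.5 on the Cbs null array and 1303.9 on the control array, and without Afp to 1438.9 and 1279.2 in the same order. These sums include Cubn itself. The part of yolk sac endoderm in the Cubn values was not tested.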
